A study of Homo sapiens with 12 samples.

Results

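Human miR-193 and miR-365 are encoded by 2 related loci, each with a miR-193 hairpin followed by a miR-365 hairpin: miR-193b and miR-365a on chromosome 16, and miR-193a and miR-365b on chromosome 17. The 6 mature miRNAs described here (hsa-miR-193a-5p, hsa-miR-193a-3p, hsa-miR-193b-3p, hsa-miR-193b-5p, hsa-miR-365a-3p, and hsa-miR-365b-3p, written without the species prefix from here on) were taken by name from the 2588 mature miRNAs in the authors' count table, and all 6 passed the expression filter that left 491 miRNAs to be tested. miR-365a-3p and miR-365b-3p have the same sequence and counts that differed by at most 3 in any library, so the 6 names hold 5 distinct measurements. The other strands of the miR-365 hairpins, miR-365a-5p and miR-365b-5p, are given beside them because they tell the loci apart.

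Small RNA was sequenced from A549 cells, a human lung adenocarcinoma line with an epithelial morphology, at 0, 24, and 96 h of treatment with TGF-β, a cytokine that drives these cells into epithelial-mesenchymal transition (EMT). There were 2 libraries at each time point, each sequenced in 2 runs that the authors summed. All cells were seeded in serum-free medium before TGF-β was added, as the methods describe. The 0 h libraries are the untreated reference. Untreated cells kept for 24 or 96 h were not analysed here, so time in culture and TGF-β cannot be told apart, nor, in RNA from whole cultures, can fewer expressing cells and less RNA per cell. The labels do not say whether the libraries came from separate cultures, so the p-values measure the spread between these libraries, which may be technical.

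A miRNA hairpin is cut by Drosha and then by Dicer into a short duplex, and either strand, 5p or 3p, can be loaded into an Argonaute protein, where the seed near its 5′ end pairs with target mRNAs. miR-193 and miR-365 are conserved neighbours; the miR-193b and miR-365 cluster is known for its high level in brown fat, miR-193a-3p and miR-193b-3p for targeting MCL1 and cyclin D1 (CCND1), and miR-365 for targeting cyclin D1, IL6, and the lung transcription factor NKX2-1. The genes and tissues named here are background and were not measured.

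The mature sequences are shown because shared seeds and shared reads decide which of these miRNAs the counts can separate. They are RefSeq sequences (GRCh38.p14), written 5′ to 3′, with the seed (bases 2 to 8) in capitals.
miR-365a-3p: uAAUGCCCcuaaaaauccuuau
miR-365b-3p: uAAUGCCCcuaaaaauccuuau
miR-193b-3p: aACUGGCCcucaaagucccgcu
miR-193a-3p: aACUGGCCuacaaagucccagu
miR-365a-5p: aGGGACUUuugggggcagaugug
miR-365b-5p: aGGGACUUucaggggcagcugu
miR-193b-5p: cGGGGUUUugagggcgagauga
miR-193a-5p: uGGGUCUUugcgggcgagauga
The seed ACUGGCC was shared by miR-193a-3p and miR-193b-3p and by none other of the 2370 mature miRNAs in the RefSeq table. Likewise, AAUGCCC belonged to the miR-365-3p names alone and GGGACUU to the miR-365-5p strands alone. The miR-193 5p strands do not share a seed: GGGUCUU and GGGGUUU each belonged to a single name. miR-193a-3p and miR-193b-3p matched at 18 of 22 bases and differed by U9C, A10U, A20G, and G21C, where the first base is that of miR-193a-3p and positions are counted from 1 at the 5′ end. miR-193a-5p and miR-193b-5p also matched at 18 of 22 bases, and their differences (U1C, U5G, C6U, and C11A, from miR-193a-5p to miR-193b-5p) include 2 seed positions. miR-365a-5p and miR-365b-5p matched at 19 of the 22 bases compared, with U10C, G11A, and A19C from miR-365a-5p to miR-365b-5p. Reads of the miR-365-3p strand can therefore not be assigned to a locus, whereas those of the other 6 strands can.

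The hairpins are printed with both mature strands in capitals, to show where each measured strand lies in its precursor.
MIR193B: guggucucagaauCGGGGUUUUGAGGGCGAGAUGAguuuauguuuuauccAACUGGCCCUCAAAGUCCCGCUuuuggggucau
MIR365A: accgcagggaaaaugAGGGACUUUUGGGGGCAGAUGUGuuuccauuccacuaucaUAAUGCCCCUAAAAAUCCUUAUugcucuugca
MIR193A: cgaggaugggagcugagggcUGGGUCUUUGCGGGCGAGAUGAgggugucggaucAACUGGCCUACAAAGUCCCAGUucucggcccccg
MIR365B: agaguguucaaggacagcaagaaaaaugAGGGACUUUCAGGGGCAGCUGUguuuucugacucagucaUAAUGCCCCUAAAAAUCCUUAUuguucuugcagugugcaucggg
In GRCh37, the build of the authors' processing notes (hg19), MIR193B lies at chr16:14397824-14397906 and MIR365A at chr16:14403142-14403228, both on the plus strand, 5235 bp apart and within an intron of the long noncoding RNA gene MIR193BHG. MIR193A lies at chr17:29887015-29887102, outside any other annotated gene, and MIR365B at chr17:29902430-29902540, in an exon of the long noncoding RNA gene MIR365BHG, also on the plus strand and 15327 bp apart.

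Library totals ranged from 2335185 to 5971197 counts on mature miRNAs, with the largest at 96 h. Levels are CPM, counts relative to the library total, after TMM normalization, whose factors ran from 0.738 at 96 h to 1.36 at 0 h. Of the epithelial marker miRNAs (the miR-200 family and miR-205-5p), all 6 were in the table, but miR-205-5p had 0 to 3 counts and miR-141-3p 5 to 13. The summed epithelial markers were 119 to 120 CPM at 0 h, 153 to 181 after 24 h, and 235 to 243 after 96 h. Their members differed in direction. From 0 to 96 h, miR-200b-3p went from 45.1 and 43.0 to 147 and 120 CPM. miR-200a-3p went from 37.0 and 44.8 to 64.4 and 79.2 CPM. The libraries of miR-200c-3p and of miR-429 overlapped between 0 and 96 h. miR-141-3p was lower, from 3.30 and 3.88 to 1.13 and 2.17 CPM, and miR-205-5p had 0 counts in both 96 h libraries. The 4 fibroblast and smooth muscle markers summed to 0.895 to 2.56, 1.49 to 5.51, and 8.68 to 9.76 CPM, with miR-214-3p at 0 in all 6 libraries. Most of the 96 h sum was miR-145-5p, with 1 and 0 counts at 0 h and 29 and 25 at 96 h. miR-199a-3p had 1.83 and 0.895 CPM at 0 h and 2.27 and 1.90 at 96 h, and miR-199a-5p had 0 to 4 counts. The 5 blood markers summed to 4.77 to 5.49, 2.14 to 2.61, and 1.13 to 1.36 CPM, with miR-223-3p at 0. The 2 strands of endothelial miR-126 summed to 404 to 460, 457 to 515, and 455 to 495 CPM, and the 3 striated muscle markers stayed between 0.271 and 1.83 CPM. The part of these marker levels in the changes of miR-193 and miR-365 was not tested. The labels give all first runs the same date. The second runs of 0 h replicate 1 and of both 96 h libraries share a date, and those of 0 h replicate 2 and of both 24 h libraries share another. The counts sum both runs, so dates differ only in the reads of the second run. Each change relative to 0 h could also be read between libraries whose runs share their dates, called within a date below. This leaves a lone library at 0 h. The 24 and 96 h libraries cannot be told apart from the dates of their second runs.

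miR-365-3p and miR-193b-3p were the abundant strands and the chromosome 17 strands were rare (plot of the strands in each library). At 0 h, miR-193b-3p was at 513 ± 136 CPM and miR-365a-3p at 408 ± 20.6 CPM (SD, n = 2 libraries), and their libraries overlapped. miR-365a-5p followed at 72.8 ± 2.16 CPM, above the next strand in both libraries. miR-193b-5p (30.5 ± 3.95), miR-193a-3p (25.4 ± 13.1), and miR-193a-5p (21.7 ± 2.68) overlapped along this order at 0 h, and miR-365b-5p was lowest at 4.56 CPM, with 7 and 22 counts. At 96 h the same 7 strands stood without overlap between neighbours, in the order miR-365a-3p, miR-193b-3p, miR-365a-5p, miR-193b-5p, miR-193a-5p, miR-193a-3p, and miR-365b-5p. The 5 distinct measurements summed to 0.103% and 0.152% of all counts at 0 h, 0.177% and 0.144% after 24 h, and 0.140% and 0.168% after 96 h. These shares overlapped between the time points, while the order within them changed.

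**Figure D1:**
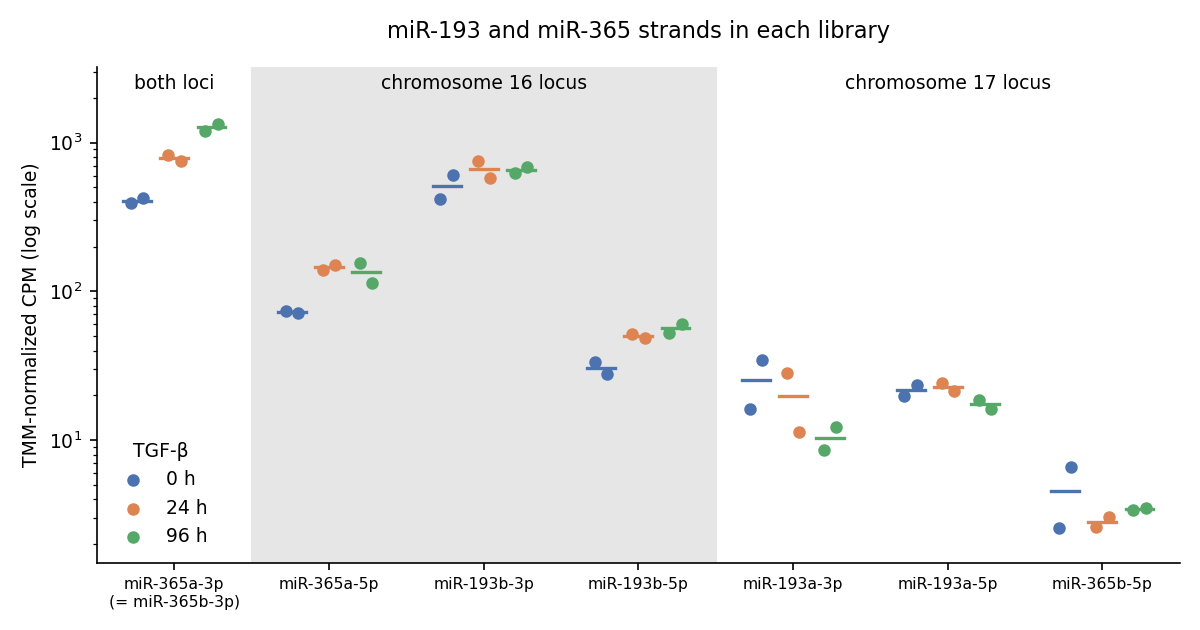
TMM-normalized CPM (log axis) of 7 strands in each of the 6 libraries; points are libraries, coloured by hours of TGF-β treatment, and bars are the means of 2 libraries. miR-365a-3p, whose sequence both loci encode, went from 393 and 423 CPM at 0 h to 1190 and 1343 CPM at 96 h, whereas the strands of the chromosome 17 locus stayed below 35 CPM in every library.

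Counts of the strands that differ in sequence between the loci came mostly from chromosome 16. miR-193b-3p, miR-193b-5p, and miR-365a-5p made up 93.2% (95% Wilson interval 91.8 to 94.3) and 91.6% (90.5 to 92.6) of these counts at 0 h, 94.5% (93.6 to 95.3) and 95.6% (94.7 to 96.3) after 24 h, and 96.46% (95.8 to 97.0) and 96.41% (95.7 to 97.0) after 96 h. The share was higher in both 96 h libraries than in every other library, although the intervals, which cover counting error only, overlapped those of 24 h replicate 2. Means were 92.4 ± 1.09%, 95.0 ± 0.778%, and 96.4 ± 0.030% (SD, n = 2 libraries), and an exact permutation test of 2 libraries against 2 cannot give a two-sided p below 0.333. Of the miR-365-5p counts alone, 96.7% and 91.6% were those of miR-365a-5p at 0 h, 98.2% and 98.0% after 24 h, and 97.8% and 97.0% after 96 h. This is the only measurement here that bears on which locus the miR-365 reads came from, and it rests on 7 to 22 counts of miR-365b-5p in each library. It carries over to miR-365-3p only if both hairpins have the same ratio of 3p to 5p counts, which could not be measured. In the miR-193 hairpins that ratio differed, from 11.4 to 22.0 in miR-193b and from 0.463 to 1.47 in miR-193a.

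miR-365-3p was the strand with the largest rise at 96 h among these miRNAs. miR-365a-3p had 1074 and 1416 counts at 0 h (393 and 423 CPM), 2203 and 2463 after 24 h (820 and 753 CPM), and 5244 and 4950 after 96 h (1190 and 1343 CPM). Each time point stood above the one before without overlap, and the rank of miR-365a-3p among all mature miRNAs went from 86 and 81 to 62 and 61 and then to 54 and 48. Its log2-fold change was 0.95 at 24 h (standard error 0.14, adjusted p = 0.00349, edgeR quasi-likelihood F-test, Benjamini-Hochberg over 491 miRNAs), just under the threshold of 1, and 1.63 at 96 h (standard error 0.14, adjusted p = 2.33e-05, edgeR), a 3.10-fold rise. Between 24 and 96 h it changed by 0.69 on the log2 scale (standard error 0.14, adjusted p = 0.0136, edgeR), again under the fold threshold. miR-365b-3p, with the same reads, had the values 0.95, 1.63, and 0.69. Within a date, that is without 0 h replicate 2, the 96 h change of miR-365a-3p was 1.69, and without 0 h replicate 1 the 24 h change was 0.93. Each of these values used a lone 0 h library. Scaled by library totals instead of TMM, the 96 h log2-fold change was 0.90 (adjusted p = 0.00265, edgeR) and no longer past the fold threshold.

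At 96 h, 25.9% of all tested miRNAs were differentially expressed, with an adjusted p under 0.05 and a change of more than 1 log2 unit, 12.6% higher and 13.2% lower. Among the 6 names, miR-365a-3p and miR-365b-3p (1 measurement) were higher and miR-193a-3p was lower. At 24 h, when 3.46% of the tested miRNAs were differentially expressed, and between 24 and 96 h, when 5.91% were, 0 of the 6 names were. By the adjusted p alone, which 44.0% of the tested miRNAs passed at 96 h (22.8% higher and 21.2% lower), miR-193b-5p was added to those higher at 96 h. The miR-365-3p names also passed it at 24 h, when 7.13% of all did (3.46% higher), and between 24 and 96 h, when 12.6% did (8.96% higher). The libraries at 0 and 96 h did not overlap for any of the 6 names, higher for miR-365a-3p, miR-365b-3p, miR-193b-3p, and miR-193b-5p and lower for the miR-193a strands, but this also held for 33.0% (higher) and 38.7% (lower) of all tested miRNAs. At 24 h the libraries stood clear of 0 h for the miR-365-3p names and miR-193b-5p, all higher, against 29.3% of all tested miRNAs higher and 28.5% lower. Between 24 and 96 h the same 3 names were higher without overlap and miR-193a-5p lower, against 30.3% and 31.6%.

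**Figure D2:**
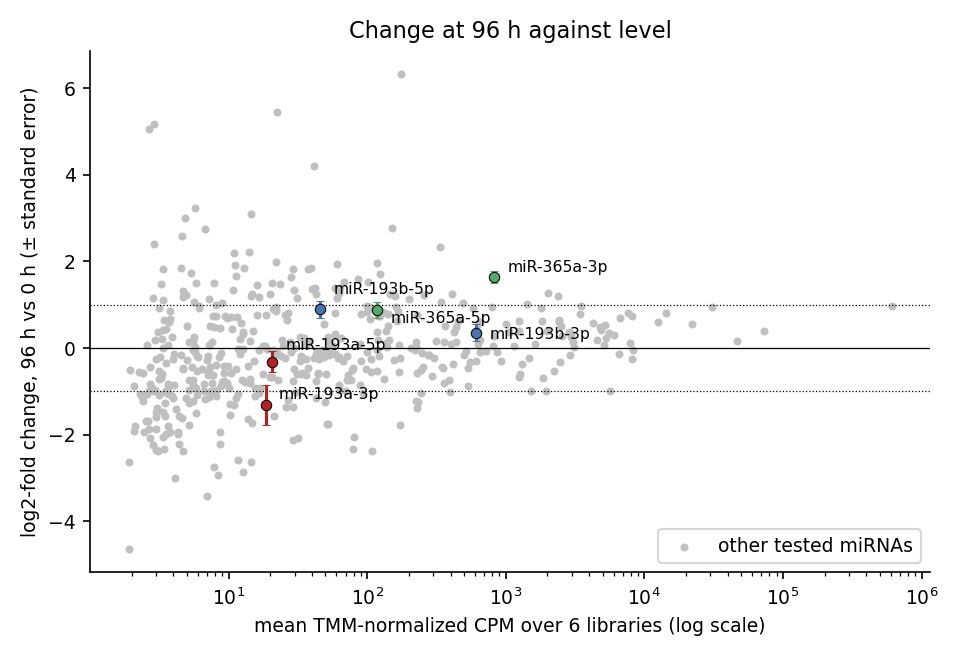
Log2-fold change at 96 h relative to 0 h (± standard error of edgeR's fit) against the mean TMM-normalized CPM over 6 libraries (log axis), for the tested miRNAs (491 in all) in grey and the miR-193 and miR-365 strands in colour; dotted lines mark log2-fold changes of 1 and −1. miR-365a-3p lies at 1.63, miR-193a-3p at −1.31 with a standard error of 0.46, and the other strands lie between the dotted lines.

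The scaling moved the absolute values of all these miRNAs. When library totals replaced TMM, the median over all 491 miRNAs of the 96 h log2-fold change moved from −0.10 to −0.83, and the differentially expressed miRNAs from 62 higher and 65 lower to 23 higher and 192 lower. Relative to that median, miR-365a-3p was at 1.73 under both scalings, miR-193b-3p at 0.45 and 0.44, miR-193a-5p at −0.22 and −0.22, and miR-193a-3p at −1.21 and −1.23. A change of scaling shifts all miRNAs by nearly the same amount, so these relative values are bound to stay close. The absolute value of miR-193b-3p at 96 h changed from 0.35 to −0.39.

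miR-365a-5p, the strand of the chromosome 16 hairpin opposite miR-365a-3p, had 203 and 239 counts at 0 h (74.4 and 71.3 CPM), 375 and 495 after 24 h (140 and 151 CPM), and 681 and 421 after 96 h (155 and 114 CPM). Both later time points lay above 0 h without overlap, while the 24 and 96 h libraries overlapped. Its log2-fold changes relative to 0 h were 0.999 at 24 h (standard error 0.19, adjusted p = 0.0139, edgeR) and 0.88 at 96 h (standard error 0.19, adjusted p = 0.00435, edgeR), and −0.11 from 24 to 96 h (adjusted p = 0.701, edgeR). The 24 h value thus fell just short of the fold threshold, and 7 of the alternatives put it past both thresholds. With total counts it was 0.71 (adjusted p = 0.0386, edgeR) at 24 h and 0.15 (adjusted p = 0.490, edgeR) at 96 h. Without 96 h replicate 1 the 96 h value was 0.68 (adjusted p = 0.0535, edgeR), and without 96 h replicate 2 it was 1.13 (adjusted p = 0.00674, edgeR), past both thresholds.

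miR-193b-3p, the abundant strand of the MIR193B hairpin and known to target cyclin D1, had 1139 and 2042 counts at 0 h (417 and 609 CPM), 2028 and 1885 after 24 h (755 and 577 CPM), and 2760 and 2529 after 96 h (626 and 686 CPM). The 0 h libraries differed more from each other than the time points did in their means, which were 513 ± 136, 666 ± 126, and 656 ± 42.2 CPM (SD, n = 2 libraries). The log2-fold changes were 0.37 at 24 h (standard error 0.20, adjusted p = 0.246, edgeR), 0.35 at 96 h (standard error 0.20, adjusted p = 0.173, edgeR), and −0.02 from 24 to 96 h (adjusted p = 0.971, edgeR). None passed the test with all libraries. Within a date, without 0 h replicate 2, the 96 h value was 0.66 (adjusted p = 0.00829, edgeR), while without 0 h replicate 1 it was 0.15 (adjusted p = 0.507, edgeR). The 24 h value was 0.68 (adjusted p = 0.0223, edgeR) without 0 h replicate 2 and 0.16 (adjusted p = 0.545, edgeR) without 0 h replicate 1, so both rested on which 0 h library was used. Leaving out a 24 h library gave 0.20 (replicate 1) and 0.50 (replicate 2) at 24 h.

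miR-193b-5p, the rarer strand of the same hairpin, had 91 and 93 counts at 0 h (33.3 and 27.8 CPM), 138 and 160 at 24 h (51.4 and 48.9 CPM), and 233 and 222 at 96 h (52.9 and 60.2 CPM). All 4 treated libraries lay above both 0 h libraries. Its log2-fold change was 0.72 at 24 h (standard error 0.20, adjusted p = 0.0568, edgeR), 0.89 at 96 h (standard error 0.20, adjusted p = 0.00561, edgeR), and 0.17 from 24 to 96 h (adjusted p = 0.562, edgeR). The 96 h change passed the adjusted p but not the fold threshold. Leaving out 0 h replicate 1 gave 1.07 and leaving out 96 h replicate 1 gave 1.01, both past the 2 thresholds. Leaving out 0 h replicate 2 gave 0.77. With total counts the 96 h value was 0.17 (adjusted p = 0.462, edgeR).

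miR-193a-3p, which shares its seed with miR-193b-3p, had 44 and 116 counts at 0 h (16.1 and 34.6 CPM), 76 and 37 at 24 h (28.3 and 11.3 CPM), and 38 and 45 at 96 h (8.62 and 12.2 CPM). Its libraries at 0 h, and again at 24 h, differed by over 2-fold, and the 24 h libraries overlapped both other time points. On the log2 scale it differed from 0 h by −0.39 at 24 h (standard error 0.45, adjusted p = 0.593, edgeR) and by −1.31 at 96 h (standard error 0.46, adjusted p = 0.0430, edgeR), and the value from 24 to 96 h was −0.91 (standard error 0.48, adjusted p = 0.235, edgeR). The last was −0.13 when 24 h replicate 1 was left out, −1.37 when 24 h replicate 2 was, and −0.61 when 96 h replicate 1 was. The 24 h value turned to 0.28 without 0 h replicate 2 and to 0.09 without 24 h replicate 2. The fall at 96 h passed both thresholds but rested on single libraries: it was −0.63 (adjusted p = 0.303, edgeR) without 0 h replicate 2, which is the value within a date, −1.05 (adjusted p = 0.218) without 96 h replicate 1, and −1.53 (adjusted p = 0.107) without 96 h replicate 2. With DESeq2's size factors in edgeR it was −1.24 (adjusted p = 0.0519), also short of the threshold.

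miR-193a-5p, the other strand of that hairpin, had 54 and 79 counts at 0 h (19.8 and 23.6 CPM), 65 and 70 at 24 h (24.2 and 21.4 CPM), and 82 and 60 at 96 h (18.6 and 16.3 CPM). Its levels stayed within 16.3 to 24.2 CPM. The log2-fold changes were 0.07 at 24 h (standard error 0.24, adjusted p = 0.875, edgeR), −0.31 at 96 h (standard error 0.24, adjusted p = 0.307, edgeR), and −0.38 from 24 to 96 h (adjusted p = 0.308, edgeR). None passed the test with TMM, and with total counts the 96 h value was −1.05 (adjusted p = 0.00570, edgeR), past both thresholds. miR-365b-5p, the remaining strand of the chromosome 17 locus, was too rare to be tested, with 7 and 22 counts at 0 h, 7 and 10 after 24 h, and 15 and 13 after 96 h.

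**Figure D3:**
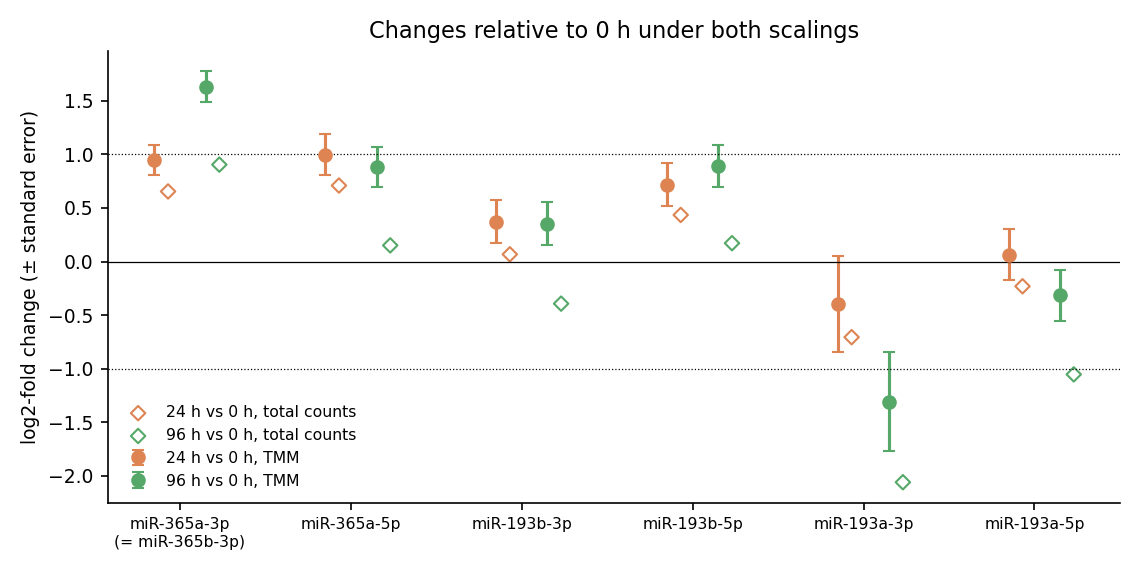
Log2-fold changes of 6 strands at 24 and 96 h relative to 0 h (edgeR, n = 2 libraries at each time point), with filled circles and standard errors for TMM, open diamonds for total counts, and dotted lines at 1 and −1. With TMM the 96 h values ran from −1.31 for miR-193a-3p to 1.63 for miR-365a-3p, and every open diamond lies below its circle, that of miR-193b-3p at 96 h on the other side of 0 (−0.39 against 0.35).

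Ratios of strands within a library do not depend on the scaling. The ratio of miR-365a-3p to miR-193b-3p was 0.943 and 0.693 at 0 h, 1.09 and 1.31 after 24 h, and 1.90 and 1.96 after 96 h. The 3 time points did not overlap, and miR-193b-3p was the more abundant of the pair in both 0 h libraries and in none of the later ones. The means were 0.818 ± 0.176, 1.20 ± 0.156, and 1.93 ± 0.0405 (SD, n = 2 libraries), 2.38-fold higher at 96 h than at 0 h in the geometric mean, with an exact permutation p of 0.333, the smallest that 2 libraries against 2 allow. Between the opposite strands of the chromosome 16 hairpins, miR-365a-5p to miR-193b-5p, the ratio was 2.23 and 2.57 at 0 h, 2.72 and 3.09 after 24 h, and 2.92 and 1.90 after 96 h, so that 0 and 96 h overlapped. The 0 and 96 h libraries thus stood apart in the ratio of the 3p strands and overlapped in that of the 5p strands, and the difference between these ratios was not tested.

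The ratios between the miR-193 paralogs were higher in the 96 h libraries than at 0 h for both strands, but did not pass the test over all pairs. The ratio of miR-193b-3p to miR-193a-3p was 25.9 and 17.6 at 0 h, 26.7 and 50.9 after 24 h, and 72.6 and 56.2 after 96 h. The ratio of miR-193b-5p to miR-193a-5p was 1.69 and 1.18 at 0 h, 2.12 and 2.29 after 24 h, and 2.84 and 3.70 after 96 h. Both ratios were higher in every later library than in either 0 h library, and at 96 h than at 24 h. How many other pairs of paralogs stood apart in this way was not counted, but changed ratios were common. At an unadjusted p under 0.05 (limma), 15 of 148 pairs changed at 24 h, 48 at 96 h, and 37 between 24 and 96 h. Over 148 pairs of paralogous miRNAs, of which 7.43% had a different ratio at 96 h at an adjusted p under 0.05 (limma; 2.70% a lower ratio), the log2 change of the miR-193a-3p to miR-193b-3p ratio was −1.58 (standard error 0.40, adjusted p = 0.0906, limma) and that of miR-193a-5p to miR-193b-5p −1.20 (standard error 0.24, adjusted p = 0.0605, limma). Both passed the threshold when a mean of 10 CPM was required of the paired miRNAs (adjusted p = 0.0464 and 0.0346, limma), but so did 28 of those 102 pairs, a larger share than among the 148. At 24 h the log2 changes were −0.79 and −0.64 (adjusted p = 0.654 and 0.465, limma), and from 24 to 96 h −0.79 and −0.56 (adjusted p = 0.305 and 0.247, limma). Pairs that share a miRNA, such as those of let-7d-5p, are not independent. The 148 pairs also include miR-365a-3p with miR-365b-3p, which share their reads, so the shares of pairs are only descriptive.

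The use of the 2 strands of each hairpin was compared over 108 precursors, and 0 precursors differed between any time points at an adjusted p under 0.05 (limma), with 3 at 24 h, 19 at 96 h, and 8 between 24 and 96 h at an unadjusted p under 0.05. miR-365a-3p counts were 5.29 and 5.92 times those of miR-365a-5p at 0 h, 5.87 and 4.98 times after 24 h, and 7.70 and 11.8 times after 96 h. The miR-365a-3p counts can hold reads of both loci, so this ratio is not that of the MIR365A hairpin alone. The 96 h libraries lay above all others, but the log2 change of 5p over 3p from 0 h was −0.77 (standard error 0.32, adjusted p = 0.266, limma). In the miR-193 hairpins it was 0.51 for miR-193b (adjusted p = 0.413, limma) and 0.88 for miR-193a (adjusted p = 0.378, limma). The 3p strand of miR-193b was 11.4 to 22.0 times as abundant as its 5p strand, while in miR-193a the strands were near each other, with ratios of 3p to 5p from 0.463 to 1.47.

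**Figure D4:**
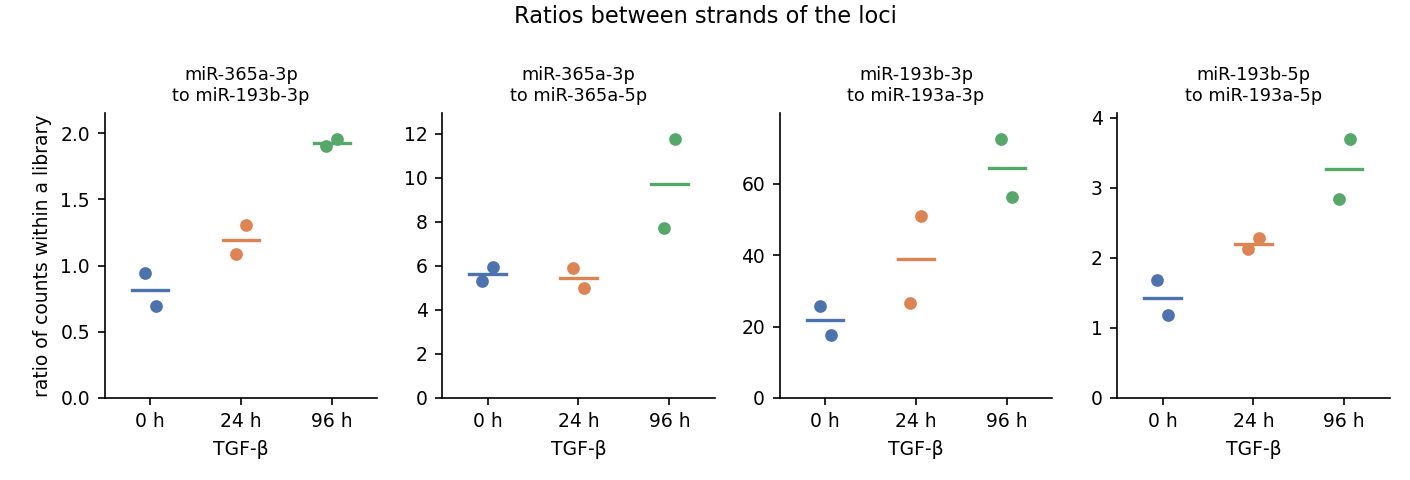
Ratios of counts within each library (4 panels, linear axes from 0) at 0, 24, and 96 h of TGF-β treatment; points are libraries and bars are means of 2 libraries. The ratio of miR-365a-3p to miR-193b-3p went from 0.943 and 0.693 at 0 h to 1.90 and 1.96 at 96 h, and that of miR-193b-3p to miR-193a-3p from 25.9 and 17.6 to 72.6 and 56.2.

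These strands were also compared with each other over the 6 libraries, as a description of log2 CPM values that share their depth and scaling. miR-193b-5p and miR-365a-3p were most alike, with a Pearson correlation of 0.940, followed by miR-193b-5p and miR-365a-5p at 0.854 and by miR-365a-3p and miR-365a-5p at 0.786. The strands of miR-193b were at 0.570 and those of miR-193a at 0.756. Between the miR-193a strands and the other strands, miR-365a-3p included, the correlations ran from −0.612 to 0.166, the highest being that of miR-193a-3p and miR-193b-3p.

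Among the 320 or 321 other tested miRNAs that reached a mean of 10 CPM, the 3 most like each of these strands over the 6 libraries were as follows. For miR-365a-3p they were miR-181a-2-3p (Pearson correlation 0.996), miR-143-3p (0.988), and miR-450b-5p (0.977), which had 96 h log2-fold changes of 2.32, 6.32, and 1.20. miR-181a-2-3p, the closest, was at 117 and 117 CPM at 0 h, 306 and 318 after 24 h, and 556 and 616 after 96 h, which gives the same order of time points as miR-365a-3p at a lower level. For miR-193b-5p they were miR-664a-3p (0.981), miR-493-5p (0.976), and again miR-143-3p (0.968). For miR-193b-3p they were miR-181c-5p (0.951), miR-31-5p (0.941), and miR-299-3p (0.937), all likewise lower in 0 h replicate 1 than in 0 h replicate 2 and higher in 24 h replicate 1 than in 24 h replicate 2. The lists of the chromosome 17 strands hold no name in common with these: miR-151a-5p (0.983), miR-301a-3p (0.981), and miR-106b-5p (0.962) for miR-193a-3p, and miR-34a-5p (0.940), miR-29b-3p (0.924), and miR-328-3p (0.915) for miR-193a-5p. All 6 of these had log2-fold changes at 96 h below 0, from −0.33 to −0.99. The miRNAs were picked for likeness over the same 6 libraries, so a shared direction largely follows from the choice and is no separate result.

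Other miRNAs linked to brown fat or to cyclin D1 gave the following values. A list of miRNAs that act in brown fat or its formation held 20 names, with miR-203a-3p also entered as miR-203a. All but the name miR-203a were in the table, 19 in all, and 17 were tested. At 96 h, 2 were higher, both strands of miR-455, and 0 lower, against 12.6% higher and 13.2% lower among all tested miRNAs. The median log2-fold change of the list was 0.15 against −0.10. The list was not divided by whether its members promote or hinder brown fat, so its median describes neither effect. miR-455-3p had 39.9 and 31.3 CPM at 0 h, 63.3 and 70.7 after 24 h, and 118 and 87.3 after 96 h. At 96 h it had risen by 1.53 on the log2 scale (standard error 0.22, adjusted p = 0.000475, edgeR). miR-455-5p had 301 and 230 CPM at 0 h, 296 and 374 after 24 h, and 696 and 577 after 96 h. miR-455-5p had risen by 1.26 on the log2 scale (standard error 0.19, adjusted p = 0.000680, edgeR). By the adjusted p alone, 6 of the 17 were higher and 5 lower at 96 h, against 22.8% and 21.2% of all tested miRNAs. The 6 higher ones were both strands of miR-455, miR-26a-5p (log2-fold change 0.70), miR-182-5p (0.52), miR-27a-3p (0.49), and miR-30b-5p (0.48). The 5 lower ones were miR-106b-5p (log2-fold change −0.80), miR-34a-5p (−0.73), miR-93-5p (−0.67), miR-378a-3p (−0.61), and miR-328-3p (−0.55). At 24 h and between 24 and 96 h, 0 of the 17 were differentially expressed, against 3.46% and 5.91% of all.

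Of 12 other miRNAs known to target cyclin D1, of which miR-34a-5p is also in the brown fat list, all 12 were tested and 0 were differentially expressed in any of the 3 comparisons, against 3.46% of all tested miRNAs at 24 h, 25.9% at 96 h, and 5.91% between 24 and 96 h. By the adjusted p alone, 2 were higher and 3 lower at 96 h, against 22.8% and 21.2% of all, and the median log2-fold change of the list was −0.25 against −0.10 for all tested miRNAs. The cyclin D1 targeting strands of the clusters lay on both sides of this list's median at 96 h with TMM, with miR-365-3p at 1.63, miR-193b-3p at 0.35, and miR-193a-3p at −1.31. Of these, miR-193b-3p did not pass the test (adjusted p = 0.173, edgeR) and was at −0.39 with total counts. The fall of miR-193a-3p rested on single libraries.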

How the data were processed

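Small RNA libraries of A549 cells, prepared with Illumina's small RNA kit, were counted by the authors with miRDeep2. The deposited counts are raw read numbers for each pairing of a mature miRNA with a precursor, with both runs of a library summed (12 runs, 6 libraries). The processing notes name FastQC and hg19; the miRNA reference set and mapping settings are not given in the sources used here. The deposited table of normalized values was not used, because it holds the same reads and repeats a column. How the reads of miRNAs with the same sequence were listed could change their values: both names of miR-365-3p carry the full count.

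For each of the 2588 names, the precursor entry with the highest total was used. The 3 comparisons of time points were fitted in edgeR 4.0.16 (R 4.3.3; TMM, filterByExpr with a minimum count of 10, quasi-likelihood F-test over all 6 libraries, time point as the only term, Benjamini-Hochberg adjustment over 491 miRNAs, which held 99.96% of the counts). Differential expression required an adjusted p under 0.05 and a change of more than 1 log2 unit, the study's thresholds. Standard errors are the absolute log2-fold change over the square root of F. Log2 ratios of strands and of paralogs (counts + 0.5) were tested with limma 3.58.1. Ratios printed for single libraries are without the 0.5. The edgeR fit and the strand ratios were tried on simulated data whose planted changes were larger than those of the miR-193 and miR-365 strands. Paralog ratios were not simulated.

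Library totals of 2335185 to 5971197 make 1 read 0.428 to 0.167 CPM before TMM normalization. Counts of a time point's libraries differed far beyond sampling noise (chi-square over its degrees of freedom 34.9 to 73.1), so all were kept as separate samples. Named were the 6 miRNAs, the other strands of their precursors, the 3 miRNAs most like each, and differentially expressed members of a brown fat list and a cyclin D1 list with a mean of at least 10 CPM. Cell type markers and the brown fat miRNAs that passed the adjusted p alone at 96 h were also named. The members and lists were chosen with earlier results of these data known. Alternatives were other scalings, DESeq2 1.42.0, other filters, only the libraries compared, a replicate block, other handling of precursor entries, thinned libraries, and leaving out each library. Counting names with the same sequence once was added after seeing the data. Sequences are from RefSeq (GRCh38.p14), where 2281 of the names had a sequence, and positions are from GENCODE on GRCh37, to whose genome the 4 hairpins were identical. The rest was done in Python 3.11.15 (pandas 2.3.3, numpy 2.4.6, scipy 1.17.1, matplotlib 3.10.9).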

Additional observations from a re-analysis of the deposited data

Results flagged for a closer look

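The change of miR-365-3p differed between the time points. From 24 to 96 h the log2-fold change was 0.69 for miR-365a-3p and 0.69 for miR-365b-3p, which share their reads (adjusted p = 0.0136, edgeR quasi-likelihood F-test, Benjamini-Hochberg), with both 96 h libraries above both 24 h libraries. When library totals replaced TMM the value for miR-365a-3p was 0.25 (adjusted p = 0.279, edgeR). Among the 5 distinct measurements it was the only one with an adjusted p under 0.05 between these time points. Of all tested miRNAs, 12.6% passed that threshold (8.96% higher). The change was below 1 log2 unit, so miR-365-3p was not differentially expressed in this comparison. The 24 h libraries share the date of their second run and the 96 h libraries share another, so that time and date cannot be told apart in this comparison.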

How the results depend on the processing

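The numbers of differentially expressed miRNAs (17, 127, and 29 at 24 h, at 96 h, and between 24 and 96 h) became 33 (5 higher), 215 (23 higher), and 72 (14 higher) with total counts, against 6, 62, and 18 higher with TMM, and 35, 216, and 62 without a minimum fold change. At 24 h there were 26 with totals without miR-21-5p, and 4 to 36 when a library was left out. Between 24 and 96 h there were 46 without an expression filter, 17 when a mean of 10 CPM was required, 44 with only the libraries compared, 17 in thinned libraries, and 9 to 46 when a library was left out. With total counts the 96 h log2-fold changes of miR-365a-3p and miR-365b-3p were both 0.90, that of miR-193a-5p −1.05, and that of miR-193b-3p −0.39 (−0.0098 without miR-21-5p), and miR-193b-5p was at −0.26 between 24 and 96 h. miR-193a-3p at 96 h was −1.24 with DESeq2's size factors and −1.32 with all precursor entries. miR-193a-5p at 24 h was −0.23 with total counts, −0.12 with totals without miR-21-5p, and −0.021 when a mean of 10 CPM was required. miR-193b-3p between 24 and 96 h was 0.042 with DESeq2's size factors and by DESeq2, and 0.0078 without a filter.

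When a library was left out, the ranges were −0.63 to −1.70 for miR-193a-3p at 96 h, −1.14 to 0.28 for miR-193a-3p at 24 h, −0.014 to 0.21 for miR-193a-5p at 24 h, 0.91 to 1.01 for miR-365a-3p and 0.91 to 1.01 for miR-365b-3p at 24 h, 0.77 to 1.07 for miR-193b-5p at 96 h, and, between 24 and 96 h, −0.12 to 0.19 for miR-193b-3p and −0.29 to 0.17 for miR-365a-5p. The log2 5p to 3p ratio ranged at 24 h from −0.095 to 1.04 in miR-193a, −0.075 to 0.74 in miR-193b, and −0.071 to 0.17 in miR-365a, and between 24 and 96 h from −0.16 to 0.98 in miR-193a. With a mean of 10 CPM required, 1 precursor changed its strand ratio at 96 h, 28 pairs of paralogs changed theirs at 96 h (11 otherwise) and 8 between 24 and 96 h, and the miR-193a to miR-193b ratios at 96 h, −1.58 (3p) and −1.20 (5p), passed the threshold. The 11 pairs became 7 in thinned libraries and 0 when any library was left out, and the cause was not tested. The replicate numbers did not pair the libraries (correlations of their deviations −0.301, 0.312, and −0.184). With the replicate block, 20, 124, and 41 miRNAs were differentially expressed, 0 pairs of paralogs changed at 96 h, and the fold-change calls of the 6 names did not differ. A lone library left at a time point is assumed to vary like the others. Depth limits miR-365b-5p and miR-193a most, where 3 counts, the limit for a count of 0, are 0.502 to 1.28 CPM before TMM normalization.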
